A study of Homo sapiens with 6 samples.

Results

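In a pooled CRISPR screen of HS-SY-II-Cas9 cells, 79 of 3607 guides made up at least 6 times as large a share of the reads in 1 or both of 2 mouse tumors as they did at day 0 (2.19% of guides). These guides are called expanded here, and they comprised 6 guides that passed this mark in both tumors, 35 that passed it in tumor 1 only and 38 that passed it in tumor 2 only. The share of a guide was its CPM, the count per 1000000 counts of its library, the base was the mean CPM of both day 0 libraries, and 46 of the 3653 guides were left out because they averaged under 30 counts at day 0. The members were selected on their day 0 and tumor values, so those values are given as a description and were not tested.

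The HS-SY-II line was established from a synovial sarcoma, a soft tissue cancer driven by an SS18::SSX fusion. All groups were Cas9-expressing cells of this line that had received lentiviral single guide RNAs against 348 genes, or non-targeting controls, and had been selected with puromycin. The 2 day 0 libraries came from the cells at the start, the 2 in vitro libraries from cells carried for 14 days at 5000000 cells or more, and the 2 in vivo libraries from tumors (cell line-derived xenografts). For these, 2000000 cells in Matrigel were placed under the flank skin of athymic nude mice, which lack T cells, with 4 mice per replicate by the study's methods. The labels number the tumors 1 and 2, whereas the study's own comparison of replicates names both as mice of replicate 1, so it is not settled whether they grew from separate transductions. The libraries held 3394352 to 21854232 reads, the deepest being day 0 replicate 1, and non-targeting guides took 5.46% to 8.03% of them. Reads were amplified by PCR without molecular identifiers, so the 95% Clopper-Pearson intervals below cover counting error only, and p-values measure the spread between the libraries of a group.

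In such a screen the share of a guide stands for the share of cells that carry it. A guide can gain share where the cut gene held back growth, and also where a few of the cells that carry it found a large clone after transplantation, since not every injected cell contributes to a tumor. Non-targeting guides cut no gene and serve as the controls of such a library.

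Expansion concerned a small part of the library and a large part of the tumor reads. The 79 guides held 1.77% (1.77 to 1.78) and 2.06% (2.05 to 2.07) of the reads in the day 0 libraries. In culture at day 14 they held 2.45% (2.43 to 2.46) and 2.46% (2.45 to 2.48). In tumor 1 they held 11.5% (11.4 to 11.5), and in tumor 2 12.1% (12.1 to 12.1). As the rule implies, the gain lay in the tumor that chose the guide: the 35 guides of tumor 1 only held 8.84% of tumor 1 and 1.72% of tumor 2, and the 38 of tumor 2 only held 1.24% and 8.90%. Expanded guides accounted for 9 of the 10 most abundant guides of tumor 1 and for all 10 of tumor 2.

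Few guides were expanded in both tumors. In tumor 1 41 guides passed the mark (1.14% of all guides) and in tumor 2 44 did (1.22%), and the 6 in common (0.166%) were 14.6% of the first list and 13.6% of the second. Both lists share the same day 0 base, so a low day 0 value puts a guide nearer to both. Tumor 1 was then set over day 0 replicate 1 and tumor 2 over day 0 replicate 2, which shares no library. In this setting 71 (1.97% of all guides) and 45 (1.25%) passed. The 6 that passed in both were 8.45% and 13.3% of these lists, and 5 were among the original 6. With the day 0 libraries crossed, 40 (1.11%) and 71 (1.97%) passed. The 7 that passed in both were 17.5% and 9.86% of the lists, all of the original 6 among them. At the edge of the rule, the members with the smallest higher fold were TNFRSF6B sgRNA_2271 at 6.01, MFSD3 sgRNA_702 at 6.08 and the non-targeting sgRNA_3487 at 6.11. Just outside it lay FAM71F2 sgRNA_452 at 5.99, ARF3 sgRNA_73 at 5.98 and LRRK2 sgRNA_2908 at 5.98.

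The 6 guides expanded in both tumors were 2 against BMPR2, 1 each against KIF5C, TMED9 and STIM2, and 1 non-targeting control. BMPR2 encodes the type II receptor for bone morphogenetic proteins, which pairs with type I receptors to pass the signal on to SMAD proteins. Guide sgRNA_2083 against BMPR2 had 190 and 205 CPM at day 0, 190 and 231 CPM at day 14, and 4732 and 4284 CPM in tumors 1 and 2. Its folds over day 0 of 24.0 and 21.7 were close to each other, and no culture library came near the tumors. Guide sgRNA_2081 against BMPR2 had 624 and 465 CPM at day 0, 193 and 322 CPM at day 14, and 4318 and 4955 CPM in the tumors, folds of 7.93 and 9.10. It was lower in both day 14 libraries than in either day 0 library and higher in both tumors.

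Guide sgRNA_2814 against KIF5C (chromosome 2, 148875227 to 149026759, plus strand, hg38), a heavy chain of the kinesin motor that moves cargo along microtubules in neurons, had the same order. It had 361 and 317 CPM at day 0, 86.3 and 217 CPM at day 14, and 2454 and 4261 CPM in the tumors, 7.24 and 12.6 times day 0. Guide sgRNA_1758 against TMED9 (chromosome 5, 177592203 to 177597242, plus strand), a cargo receptor of the early secretory pathway, had 77.3 and 188 CPM at day 0, 126 and 177 CPM at day 14, and 1240 and 1173 CPM in the tumors, or 9.34 and 8.83 times day 0. Its day 0 libraries differed 2.44-fold, and both tumors lay far above all 4 culture libraries.

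The remaining pair of the 6 started from low levels. The non-targeting control sgRNA_3612 had 30.3 and 24.5 CPM at day 0, 93.4 and 219 CPM at day 14, and 603 and 221 CPM in the tumors, 22.0 and 8.05 times day 0. Its day 14 replicate 2 level was close to that of tumor 2. Guide sgRNA_1215 against STIM2 (chromosome 4, 26857601 to 27025381, plus strand), a calcium sensor of the endoplasmic reticulum, had 8 and 87 counts at day 0, or 0.366 and 19.2 CPM, then 12.1 and 43.7 CPM at day 14 and 416 and 58.8 CPM in the tumors. With day 0 libraries 52.6-fold apart its folds of 42.4 and 6.002 rest on few reads, and it left the list at a minimum of 100 day 0 counts. Measured over the mean day 14 CPM instead of day 0, the guides against TMED9, KIF5C and both against BMPR2 stayed at 6-fold or more in both tumors, and the non-targeting and STIM2 guides did not. The other 9 guides of each gene had medians over day 0 in tumors 1 and 2 of 0.728 and 0.759 for KIF5C. These medians were 1.21 and 0.878 for TMED9 and 0.690 and 0.486 for STIM2. None of these other guides reached 6-fold, the highest being a KIF5C guide at 5.98 in tumor 1.

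BMPR2 (chromosome 2, 202376327 to 202567751, plus strand, hg38; GENCODE v44, the position of each guide within the gene not being given in the sources used here) was the gene with the most members, 4 of its 10 guides. The numbering of targeting guides was divided at sgRNA_1495 into a lower range, up to and including that guide, and a higher range from sgRNA_1496 on, and all 4 were in the higher range. Guide sgRNA_2084 had 502 and 403 CPM at day 0, 175 and 263 CPM at day 14, and 3018 and 2294 CPM in the tumors, 6.67 and 5.07 times day 0. Guide sgRNA_2085 had 281 and 339 CPM at day 0, 256 and 169 CPM at day 14, and 1999 and 138 CPM in the tumors, 6.46 and 0.446 times day 0. The first lay above day 0 in both tumors and the second in tumor 1 only. The fifth guide of this number range, sgRNA_2082, was no member, with 247 and 260 CPM at day 0, 94.0 and 149 CPM at day 14, and 1322 and 609 CPM in the tumors, folds of 5.21 and 2.40. Thus all 5 BMPR2 guides of the higher range were at least 5.21-fold in tumor 1, and 4 of them at least 2.40-fold in tumor 2. The 5 BMPR2 guides of the lower range ranged from 0.359 to 3.38 in tumor 1 and from 0.705 to 4.10 in tumor 2, with medians of 0.916 and 0.970.

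A further 3 genes had 2 members each, every one of them in a single tumor. UTY (chromosome Y, 13234577 to 13480673, minus strand), a Y-linked paralog of the histone demethylase KDM6A, had sgRNA_1434 and sgRNA_1435. The first had 178 and 122 CPM at day 0, 223 and 312 CPM at day 14, and 1089 and 294 CPM in the tumors, 7.26 and 1.96 times day 0. The second had 461 and 360 CPM at day 0, 486 and 890 CPM at day 14, and 2795 and 123 CPM in the tumors, 6.81 and 0.299 times day 0. Tumor 2 thus lay above day 0 for the first and below it for the second, and the other 8 UTY guides ranged from 0.490 to 1.95 in tumor 1.

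SLC2A3 (chromosome 12, 7919230 to 8019007, minus strand) encodes the glucose transporter GLUT3. Its guide sgRNA_1619 had 86.3 and 102 CPM at day 0, 134 and 203 CPM at day 14, and 126 and 1148 CPM in the tumors, 1.34 and 12.2 times day 0. Its guide sgRNA_1128 had 265 and 377 CPM at day 0, 468 and 399 CPM at day 14, and 207 and 3383 CPM in the tumors, 0.646 and 10.6 times day 0. They came from different number ranges, and of the other 8 SLC2A3 guides 2 were at least 2-fold in tumor 2, the range being 0.0886 to 3.33.

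DPP10 (chromosome 2, 114442299 to 115845780, plus strand) encodes an inactive relative of dipeptidyl peptidases that binds potassium channels. Guide sgRNA_2052 had 114 and 360 CPM at day 0, 276 and 399 CPM at day 14, and 271 and 1606 CPM in the tumors, 1.14 and 6.78 times day 0. Guide sgRNA_2053 had 84.5 and 287 CPM at day 0, 216 and 387 CPM at day 14, and 236 and 1297 CPM in the tumors, 1.27 and 6.98 times day 0. The consecutively numbered guides had much the same profile, lowest in day 0 replicate 1 and highest in tumor 2, and each differed over 3-fold between the day 0 libraries, so that over the higher day 0 library neither reached 6-fold. The highest of the other 8 DPP10 guides reached 1.00 times day 0 in tumor 2.

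Guides of tumor 1 only ranged from 6.11-fold to 50.7-fold, with a median of 8.43. The top guide of the tumor was sgRNA_3297 against AGTR1, the type 1 receptor for angiotensin II, with 96.5 and 217 CPM at day 0, 129 and 207 CPM at day 14, and 7958 and 54.5 CPM in tumors 1 and 2. It alone made up 0.796% (0.788 to 0.804) of the reads of tumor 1 and stood at 50.7 and 0.348 times day 0. Guide sgRNA_3262 against TSSK1B, a testis-specific serine kinase, had 285 and 216 CPM at day 0, 209 and 221 CPM at day 14, and 7917 and 136 CPM in the tumors, 31.6 and 0.541 times day 0. They were the 2 most abundant guides of tumor 1 and lay under day 0 in tumor 2.

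Guide sgRNA_433 against ERCC6L2, a helicase-like DNA repair factor, had 36.1 and 112 CPM at day 0, 121 and 137 CPM at day 14, and 1823 and 220 CPM in the tumors, folds of 24.6 and 2.97. Guide sgRNA_484 against GAD1, the enzyme that makes the transmitter GABA from glutamate, had 259 and 440 CPM at day 0, 608 and 432 CPM at day 14, and 6470 and 1239 CPM in the tumors, folds of 18.5 and 3.55. Guide sgRNA_814 against NUDT12, a Nudix hydrolase of NAD(P)H, had 15.01 and 7.30 CPM at day 0, 59.8 and 27.4 CPM at day 14, and 197 and 4.57 CPM in the tumors, folds of 17.6 and 0.410. The first 2 were also above both day 0 libraries in tumor 2, whereas the NUDT12 guide lay below both day 0 libraries there. The other guides of these 5 genes had medians near or under day 0 in tumor 1, namely 0.933 for AGTR1, 1.08 for TSSK1B, 0.918 for ERCC6L2, 0.189 for GAD1 and 0.504 for NUDT12.

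The remaining 30 guides of tumor 1 only lay between 6.11 and 13.1 times day 0, 19 of them in the lower number range, 10 in the higher and 1 non-targeting. The highest of them was sgRNA_2514 against DKK1, a secreted inhibitor of Wnt signaling, with 266 and 223 CPM at day 0, 450 and 379 CPM at day 14, and 3197 and 1414 CPM in the tumors. At 13.1 and 5.79 times day 0 it came nearest of all single-tumor guides to the mark in both. Beside the UTY and BMPR2 guides described above, this set included guides against TXN2, RNF2, SLC27A5, PTK2B, BICDL1, USP53, SMAD9, TYW1B, ATP10B, RASA4B, IRS4, AP1S2, FN1, C22orf23, RALGAPA2, HSD11B2, CUL9, SIK1, SLC25A4, UBXN6, GALK2, PPP1R27 and UBE2E1.

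Guides of tumor 2 only ranged from 6.01-fold to 34.1-fold, with a median of 7.72. The top guide of the tumor was sgRNA_1672 against AGAP12P, annotated as a transcribed pseudogene, with 227 and 211 CPM at day 0, 412 and 175 CPM at day 14, and 323 and 7456 CPM in tumors 1 and 2. It made up 0.746% (0.740 to 0.751) of the reads of tumor 2 and stood at 1.48 and 34.1 times day 0. Guide sgRNA_1266 against TERF1, a shelterin protein that binds telomere repeats, had 74.5 and 173 CPM at day 0, 241 and 291 CPM at day 14, and 150 and 2729 CPM in the tumors, folds of 1.21 and 22.0. In tumor 1 both stood within the range of the culture libraries.

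Guide sgRNA_175 against CCNG1, a cyclin G induced by p53, had 239 and 356 CPM at day 0, 401 and 642 CPM at day 14, and 566 and 5829 CPM in the tumors, folds of 1.90 and 19.6. Guide sgRNA_1690 against NKIRAS1, a Ras-like protein that binds inhibitors of NF-kappaB, had 143 and 171 CPM at day 0, 146 and 124 CPM at day 14, and 13.0 and 2953 CPM in the tumors, folds of 0.0830 and 18.8. Its fold in the other tumor was the lowest among all single-tumor members. The fifth was the non-targeting sgRNA_3524, at 242 and 164 CPM at day 0, 325 and 242 CPM at day 14, and 252 and 3713 CPM in the tumors, 1.24 and 18.3 times day 0. A guide that cuts no gene thus ranked 11 in tumor 2.

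The other guides of the 4 genes lay at medians of 0.571 for AGAP12P, 0.614 for TERF1, 0.981 for CCNG1 and 1.47 for NKIRAS1 in tumor 2. The remaining 33 guides of tumor 2 only lay between 6.01 and 15.2 times day 0, 19 of them in the lower number range, 13 in the higher and 1 non-targeting. The highest was sgRNA_546 against HPN, the membrane serine protease hepsin, at 1.36 and 15.2. Beside the SLC2A3 and DPP10 guides, this set held guides against GRM7, PPM1D, SYNJ1, BCL10, SIGLEC15, ZDHHC20, BPNT1, DFFB, KLF16, WDR5, PPP1R3E, MYO18A, SIM2, EDIL3, PAOX, RNF130, TMEM235, MAPK15, CTNNB1, PIK3C2B, SYCE3, CHRNA4, PPP2R2C, CHRNB3, EIF2AK1, MFSD3 and TNFRSF6B.

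In the other tumor, the medians of the single-tumor guides lay slightly above day 0 and above the medians over all guides, with a wide range. In tumor 2 the 35 guides of tumor 1 only had a median of 1.18 times day 0 and a range of 0.172 to 5.79. Of them 22 lay above day 0, 12 were at least 2-fold (34.3%) and 7 lay under 0.5-fold. In tumor 1 the 38 guides of tumor 2 only had a median of 1.23 and a range of 0.0830 to 4.64. Of them 24 lay above day 0, 7 were at least 2-fold (18.4%) and 3 lay under 0.5-fold. Over all guides the medians were 0.646 in tumor 1 and 0.616 in tumor 2, and 11.03% and 10.8% were at least 2-fold. The lower number range gave 22 of the 35 and 21 of the 38 guides, and its own medians were 0.931 in tumor 1 and 0.882 in tumor 2. The mix of ranges thus also enters the comparison with all guides. The members' values in the other tumor share the day 0 base with the rule, so they were not tested.

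Both number ranges and the non-targeting controls gave members. Guides of the lower number range gave 44 of 1492 (2.95%), 22 of them in tumor 1 only, 21 in tumor 2 only and 1 in both. Guides of the higher range gave 31 of 1932 (1.60%), 12 in tumor 1 only, 15 in tumor 2 only and 4 in both. Non-targeting guides gave 4 of 183 (2.19%), 1 in tumor 1 only, 2 in tumor 2 only and 1 in both, which to 3 digits is the percentage over all guides.

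The typical guide differed between the ranges. Median folds in tumors 1 and 2 were 0.931 and 0.882 for the lower range, 0.411 and 0.394 for the higher range, and 1.06 and 0.882 for non-targeting guides. Guides of at least 4-fold were 3.42% and 4.09% in the lower number range, 1.501% and 1.76% in the higher, and 3.28% and 2.19% among non-targeting guides. The highest fold of each tumor nevertheless belonged to a guide of the higher range, those against AGTR1 and AGAP12P. Of the guides expanded in both tumors, 4 were in the higher range (0.207% of its guides), 2 of them against BMPR2. The lower range held 1 (0.0670%), the STIM2 guide that rests on few day 0 reads. Non-targeting guides held 1 (0.546%).

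Beside sgRNA_3612 and sgRNA_3524, the non-targeting members were sgRNA_3487 and sgRNA_3624. The first had 136 and 287 CPM at day 0, 242 and 549 CPM at day 14, and 1291 and 390 CPM in the tumors, folds of 6.11 and 1.84. The second had 341 and 202 CPM at day 0, 244 and 202 CPM at day 14, and 295.7 and 1843 CPM in the tumors, folds of 1.09 and 6.79. The 4 controls thus covered all 3 kinds of member, tumor 1 only, tumor 2 only and both.

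Expansion was seldom shared by the guides of a gene. The 75 targeting members hit 69 of the 348 genes, 65 of them with a single member. In 68 of the 80 pairs of a member and a tumor in which it was expanded, no other guide of the gene reached 6-fold in that tumor. In 33 none reached 2-fold. Over all guides only 1.14% and 1.22% reached 6-fold in tumors 1 and 2, a share at which most pairs would also lack such a guide. The 12 pairs with another such guide were those of BMPR2, UTY, SLC2A3 and DPP10. The 80 pairs held 710 entries of other guides, of which 12.8% were at least 2-fold. Over all guides 11.03% and 10.8% were so in tumors 1 and 2. A gene with several members enters once for each of its pairs, so its guides are counted repeatedly. For BMPR2, 5 of 9 other guides were at least 2-fold in each tumor 1 pair and 4 of 9 in each tumor 2 pair. The percentage thus rests in part on BMPR2, and its excess over all guides is not a trait of genes with members in general. The other guides' median exceeded day 0 in 12 pairs, all BMPR2 pairs among them, and the median over pairs was 0.632.

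Members of the lower range were set beside the higher-range guides of the same gene. They formed 45 pairs with a tumor, and in 29 of them (64.4%) the gene's guides of the higher range had a median under 0.5-fold, as did 63.5% of all pairs of a gene and a tumor. For WDR5, a core subunit of histone methyltransferase complexes, sgRNA_1455 stood at 1.33 and 8.01 times day 0 while the 5 guides of the higher range had medians of 0.0747 and 0.0315. For PPM1D, a phosphatase that restrains p53, sgRNA_891 stood at 0.503 and 10.2 and its 5 guides of the higher range had medians of 0.0704 and 0.0972. The 4 other lower-range guides of these genes had medians in tumors 1 and 2 of 1.52 and 0.894 for WDR5 and 0.343 and 0.430 for PPM1D. BICDL1, an adaptor of dynein and kinesin transport, differed in that all 10 of its guides were in the higher range. Its guide sgRNA_2458 reached 10.5 and 5.52, while the other 9 had medians of 0.0915 and 0.103 and none exceeded 0.527.

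The day 14 libraries, which the rule did not use, gave a number of changed members that depended on the test. Against day 0, the quasi-likelihood test of edgeR, adjusted over 3607 guides by the Benjamini-Hochberg method, called 2 members higher, where 0.804% of all guides were called higher, and 1 member lower, where 8.12% were called lower. At an unadjusted p under 0.05 it gave 15 members higher and 6 lower, against 9.09% and 17.6% of all guides. DESeq2 called 20 members higher and 6 lower, where it called 489 and 655 of all guides, and without day 0 replicate 2 edgeR called 12 members higher and 2 lower, where it called 189 and 333 of all guides. The day 0 libraries serve both the rule and this test, and 2 libraries against 2 allow no exact permutation p under 0.333.

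Of the called members, a guide against PPM1D and a guide against BICDL1 are described here. The PPM1D guide sgRNA_891 had 242 and 332 CPM at day 0, 520 and 702 CPM at day 14, and 144 and 2927 CPM in the tumors. It rose in culture by a log2 fold change of 1.11 (SE 0.34, edgeR adjusted p = 0.0473) and lay under day 0 in tumor 1. The BICDL1 guide sgRNA_2458 had 489 and 422 CPM at day 0, 195 and 96.0 CPM at day 14, and 4801 and 2515 CPM in the tumors. In culture it fell by 1.64 on the log2 scale (SE 0.42, edgeR adjusted p = 0.0207), the opposite direction to both tumors. Both calls were lost without day 0 replicate 1 (adjusted p of 0.189 for PPM1D and 0.107 for BICDL1) and without day 14 replicate 2 (0.261 and 0.116). That of PPM1D was also lost with scaling to the non-targeting guides (0.240) and with limma on the authors' normalized values (0.361). In a fit of all 6 libraries the adjusted p were 0.748 and 0.438.

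None of the 6 guides expanded in both tumors was called at day 14 by edgeR, and at an unadjusted p under 0.05 1 was higher and 2 were lower. The log2 fold changes were −1.07 (SE 0.36, edgeR adjusted p = 0.0766) for BMPR2 sgRNA_2081 and 0.11 (SE 0.45, adjusted p = 0.901) for BMPR2 sgRNA_2083. For KIF5C sgRNA_2814 the value was −1.14 (SE 0.48, edgeR adjusted p = 0.141), and for TMED9 sgRNA_1758 it was 0.21 (SE 0.59, adjusted p = 0.843). The non-targeting sgRNA_3612 had 2.52 (SE 0.79, edgeR adjusted p = 0.0527), and STIM2 sgRNA_1215 had 1.55 (SE 2.40, adjusted p = 0.697). The value of sgRNA_3612 was the highest day 14 estimate among the members. With DESeq2 sgRNA_3612 was called higher (adjusted p = 0.000168) and sgRNA_2081 lower (adjusted p = 0.0129), and on the scale of the non-targeting guides edgeR called sgRNA_2081 (adjusted p = 0.00243) and sgRNA_2814 (adjusted p = 0.0127) lower. Median-ratio factors gave edgeR an adjusted p of 0.0441 for sgRNA_3612. With libraries left out, edgeR called sgRNA_2081 lower without day 0 replicate 2 (adjusted p = 0.0237) or day 14 replicate 2 (adjusted p = 0.0292). It also called sgRNA_2814 lower without day 14 replicate 2 (log2 fold change −1.97, adjusted p = 0.0242) and sgRNA_3612 higher without day 14 replicate 1 (adjusted p = 0.0126). Of the 6, 1 had both day 14 libraries above both day 0 libraries, the non-targeting guide, and 2 had both below, against KIF5C and BMPR2.

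As a group the members stood higher in culture than guides at large. Their median log2 fold change at day 14 was 0.49, against 0.01 over all guides, and on the scale set by non-targeting guides it was −0.03, against −0.50. Both day 14 libraries lay above both day 0 libraries for 37 members (46.8%), where 26.2% of all guides did so, and below for 8 (10.1%), where 31.7% did. By number the medians of members and of all guides were 0.65 and 0.41 in the lower range, 0.12 and −0.57 in the higher range, and 0.71 and 0.51 for non-targeting guides. To take the shared base away, members were chosen over 1 day 0 library and day 14 was measured over the other. The members' median then exceeded that of all guides by 0.26 and 0.38. In the higher range it did so by 0.53 and 0.45, in the lower range by 0.02 and 0.12, and among the 5 and 3 non-targeting guides by 0.00 and −0.30. The lower range made up 76 of the 122 and 44 of the 77 members so chosen, against 1487 of 3597 and 1480 of 3588 guides, so the mix of ranges also enters the gap over all guides.

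The choice of base mattered for single guides. Over the mean day 14 CPM 42 of the 79 members (53.2%) were still at least 6-fold, over the higher day 0 library 57 (72.2%), and over the highest of the 4 culture libraries 35 (44.3%). Of all guides 89 (2.47%) were at least 6-fold over the mean day 14 CPM, so that base also brought in guides outside the members. Members were somewhat less abundant at day 0 than all guides, with a median of 227 against 254 CPM. The rule divides by the day 0 values and so favors low ones, which makes this and the next comparison a description only. For 8 members (10.1%) the day 0 libraries differed over 3-fold, against 4.16% of all guides, the guides against STIM2, SIM2, SYNJ1, ZDHHC20, SIK1, ERCC6L2 and both against DPP10. Their part in the folds was not tested.

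Most gene lists held few members, and the BMP list held several from a single gene. Of 30 guides against BMP and TGF-beta genes (BMPR2, TGFBRAP1 and WWP2) 4 were members (13.3%), all against BMPR2, where 2.19% of all guides were members. Its medians in tumors 1 and 2 were 1.16 and 0.821. SMAD9, a SMAD that BMP receptors act on, lay outside the list and was added after its values were seen. It had 1 member, sgRNA_1149, with 144 and 306 CPM at day 0 and 485 and 299 CPM at day 14. In the tumors this guide had 2234 and 156 CPM, folds of 9.92 and 0.691. The other 9 SMAD9 guides had medians of 0.802 and 0.755, and at least 2-fold were 0 in tumor 1 and 2 in tumor 2. Most genes with a member likewise had a single one.

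Growth-restraining genes gave 2 of 40 guides, CCNG1 sgRNA_175 and CUL9 sgRNA_1730 (6.67 and 2.25 times day 0), with list medians of 0.618 and 0.750. The Wnt list gave 1 of 38, sgRNA_1713 against CTNNB1 (beta-catenin), at 0.545 and 6.54, with medians of 0.717 and 0.625. Adhesion and matrix genes gave 1 of 60, sgRNA_470 against FN1 (fibronectin), at 8.41 and 1.05, with medians of 0.795 and 0.563. Core cell machinery gave 0 of 77, with medians of 0.425 and 0.323, and the BAF complex 0 of 30, with medians of 0.255 and 0.255. Immune surface and secreted genes gave 0 of 19, with medians of 0.726 and 0.457. Over all guides 2.19% were members, a share at which lists of these sizes would hold few or none. The medians over all guides were 0.646 and 0.616. At day 14, where 8.12% of all guides were called lower and 0.804% higher, the edgeR test called 26 of the 77 core machinery guides and 6 of the 30 BAF guides lower. It called 2 of the 40 growth-restraining guides lower and 1 higher, 1 of the 19 immune guides lower, and 3 of the 30 BMP and TGF-beta guides lower and 1 higher. None of these called guides was expanded.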

How the data were processed

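The authors deposited 2 tables of 6 libraries each, read counts per guide, made from paired-end reads with MAGeCK by the study's methods, and normalized signal values, which equal the deposited counts times 1 factor per library (0.320 to 1.45). The submitters' processing notes name hg38 and give no versions. CPM were computed from column totals over all guides. Every column matched a sample by name.

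Members were guides with a mean of at least 30 day 0 counts and a tumor CPM of at least 6 times the mean day 0 CPM. The members and gene lists were chosen with earlier results of these data known. Day 14 was compared with day 0 by edgeR 4.0.16 in R 4.3.3 (TMM, glmQLFit and glmQLFTest, Benjamini-Hochberg at 0.05, common dispersion 0.141) in a fit of those 4 libraries, since tumor values chose the members. The fit was tested on simulated data with known fold changes.

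Guides named are all expanded in both tumors, those of genes with 2 or more members, the 5 highest of each tumor only, those called at day 14, the 3 on each side of the mark, non-targeting members and members in the gene lists. DKK1, SMAD9, WDR5, HPN and C22orf23, and the 8 guides with unequal day 0 libraries, were added after their values were seen. One item that the rule names is not reported here.

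By the methods each transduction gave a day 0 sample and was then split between the arms, which pairs day 0 with day 14, although deviations of same-numbered libraries from their group means correlated at only 0.0700. For tumors the values were 0.00104 with day 0 and 0.00284 with day 14. Alternatives were other scalings (TMM, median-ratio, non-targeting guides, the authors' signal values), count minimums and fold marks, DESeq2 1.42.0, limma 3.58.1 on log2 of the signal values plus 1, a fit of all 6 libraries, a replicate block, each library left out, and 2 other bases chosen after seeing the data. Gene positions are from GENCODE v44.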

Additional observations from a re-analysis of the deposited data

Results flagged for a closer look

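In 5 expanded guides both day 14 libraries lay below both day 0 libraries and both tumors above them, so the in vitro and in vivo changes ran in opposite directions. The mean day 14 and mean tumor CPM over the mean day 0 CPM were 0.448 and 9.91 for KIF5C sgRNA_2814, and 0.320 and 8.03 for BICDL1 sgRNA_2458. They were 0.473 and 8.52 for BMPR2 sgRNA_2081, and 0.484 and 5.87 for BMPR2 sgRNA_2084. For C22orf23 sgRNA_3201 they were 0.455 and 4.30, although tumor 2 at 404.7 CPM was barely above the day 0 libraries at 397 and 394 CPM. Both day 14 libraries lay below both day 0 libraries for 8 members (10.1%), against 31.7% of all guides. In the higher number range, which holds all 5 guides, this was so for 25.8% of members and 52.6% of guides. A fall in culture was thus less frequent among members than in the library. The day 0 libraries serve both the rule and this count, and the rule favors guides with low day 0 values. The rule itself also required a rise in at least 1 tumor. The difference between the arms was not tested, because the tumor values chose these guides.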

How the results depend on the processing

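The number of expanded guides depended on scaling and mark. It was 158 with TMM, 176 with median-ratio factors and 47 when non-targeting guides set the scale, 170 at 4-fold and 43 at 8-fold, against 79. Guides expanded in both tumors numbered 15, 16 and 4 with these scalings, 15 at 4-fold and 3 at 8-fold, and 10 over the mean day 14 CPM, against 6. Genes with 2 or more members numbered 19, 23 and 2, 7 with the authors' values, 20 at 4-fold, 2 at 8-fold and 7 over the day 14 CPM, against 4. With each library left out, these ranged from 41 to 122 guides, 7 to 20 in both and 2 to 18 genes, the highest without day 0 replicate 2. BMPR2 had 2 to 6 member guides throughout, and non-targeting guides gave 1.09% to 4.92% members.

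At day 14, calls over all guides (29 higher, 293 lower) were 62 higher with median-ratio factors, 1 and 817 with scaling to non-targeting guides, 489 and 655 with DESeq2, 0 and 523 with limma, and 0 and 0 in a fit of all 6 libraries. Non-targeting scaling moved the median of all guides to −0.50, and limma to −0.49. Members higher (2) were 3 with median-ratio factors. They were 0, 20, 0 and 0 and members lower (1) were 7, 6, 2 and 0 with non-targeting scaling, DESeq2, limma and the fit of 6. At an unadjusted p under 0.05 the fit of 6 gave 2 members higher and limma 3. With the replicate block, by which day 0 and day 14 were paired, 57 guides were higher, 2 members were lower and 3 higher, and the members' median exceeded that of all guides by 0.500, against 0.471. That difference was 0.459 with at least 100 day 0 counts, 0.499 with limma and 0.460 to 0.584 with a library left out. Leaving out a library gave 16 to 189 guides higher and 95 to 333 lower, with 0 to 12 and 0 to 3 members. BMPR2 sgRNA_2083 turned to −0.41 with non-targeting scaling, and −0.40 with limma, and ranged from −0.054 (without day 14 replicate 2) to 0.25 with a library left out. TMED9 sgRNA_1758 turned to −0.28 and −0.18 in these settings, and ranged from −0.25 (without day 0 replicate 1) to 0.98 with a library left out, below 0 also without day 14 replicate 2. Causes were not tested. Of the members 3.80% averaged under 300 day 0 counts, against 0.776% of all guides, and the rule itself uses the day 0 values.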
